A study of Mus musculus with 6 samples.

Results

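Notch signalling passes between neighbouring cells. A ligand of the Jagged or Delta families on one cell binds a Notch receptor on the next, the receptor is cut by ADAM proteases and then by gamma-secretase, and its freed intracellular part enters the nucleus. There it joins the DNA-binding protein RBPJ and coactivators of the Mastermind family and turns on genes of the HES and HEY families, which encode transcriptional repressors. The pathway is best known for choices between cell fates and for the growth and coating of blood vessels, and in the uterus its receptors and ligands have been described in epithelium, stroma and vessels.

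The genes described here are 4 Notch receptors (Notch1, Notch2, Notch3 and Notch4), 3 ligands (Jag1, Jag2 and Dner) and 3 target genes (Hes1, Hey1 and Heyl), 10 in all. The 10 genes were listed with earlier results of these data known. Their probe sets were chosen by the platform annotation alone, as those with exactly 1 gene symbol equal to one of the 10. This gave 17 of 41420 probe sets, for 7 of the 10 genes, and Notch1, Hes1 and Hey1 were not analysed here. The receptors had 7 probe sets, the ligands 7 and the only measured target, Heyl, 3.

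Whole uteri came from intact female mice aged 2 weeks, before puberty. The genotype labelled Arid1a f/f and the genotype labelled Arid1a d/d had 3 Affymetrix arrays each. By common usage f is a floxed allele and d a deleted one, and Arid1a encodes a DNA-binding part of SWI/SNF, a complex that remodels chromatin. The Cre driver, the strain and whether an array held 1 animal or a pool are not given in the sources used here. Both groups share age, sex and tissue, and no treatment is labelled for either. The p-values therefore cover only the spread among these arrays, part of which may be technical. Values are log2 of the deposited intensity, and each difference is d/d minus f/f. The median probe set had a mean of 2.69, and values near or below it lie close to background, where a fold change is understated. Levels of different probe sets are not compared, since probes differ in how strongly they bind.

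Median intensities ran from 6.34 to 6.59 across arrays, and pairs of arrays correlated at 0.987 to 0.995 over all probe sets. Array d/d 1 stood apart from the other d/d arrays. On the first principal component it lay at -11.9, among the f/f arrays (-29.4 to -6.95), whereas the other d/d arrays stood at 37.2 and 28.8. The uterine markers listed, among them Esr1, Pgr, Hoxa10 and Hand2, were all measured (7 of 7, 0 with a mean under 2.69), and of 5 measured ovary markers 1 had a mean under 2.69. The single Arid1a probe set fell by 0.58 ± 0.087 (SE; limma adjusted p = 0.0342), from 7.54, 7.58 and 7.71 on the f/f arrays to 6.98, 7.06 and 7.04 on the d/d arrays. Which part of the gene is deleted is not stated in the labels, so this probe set may not check the genotype. Leaving out a single f/f array raised its adjusted p above the threshold, to 0.0814, 0.14 and 0.141 for f/f 1 to 3, and so did leaving out d/d 2 (0.142) or d/d 3 (0.139).

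Of the 17 probe sets, 1 passed an adjusted p of 0.05 (limma, Benjamini-Hochberg over all probe sets), which is 5.88% of them against 0.524% of all probe sets. It belongs to Dner and was lower in d/d uteri, and 0 were called higher. In 8 of the 17 every d/d array lay below every f/f array, in 1 every d/d array lay above, and in 8 the groups overlapped. Over all 41420 probe sets the groups did not overlap in the lower direction for 7.47% and in the higher direction for 6.67%. Probe sets of 1 gene share its transcript and are not independent. Because the genes were listed with earlier results known, the shares and medians in this paragraph are descriptions only. An unadjusted p under 0.05 was reached by 9 of the 17, 8 lower and 1 higher, against 9.85% of all probe sets. The median log2 difference of the 17 was -0.27, and that of all probe sets was -0.0041. By the brightest probe set of each gene, 6 of 7 genes had a negative difference and the median was -0.35, against -0.011 over 16813 genes, of which 53.4% had a negative difference. Of the 17, 13 had a mean above 2.69 and 12 of these 13 had a negative difference. Without d/d 1 the number past the threshold was 2, Dner and a Jag2 probe set, where 2.34% of all probe sets passed, and without both arrays numbered 1 it was 1, Dner, where 1.59% passed. Without f/f 2 or without d/d 2 it was 0 (limma), where 0.0893% and 0.133% of all probe sets passed.

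**Figure D1:**
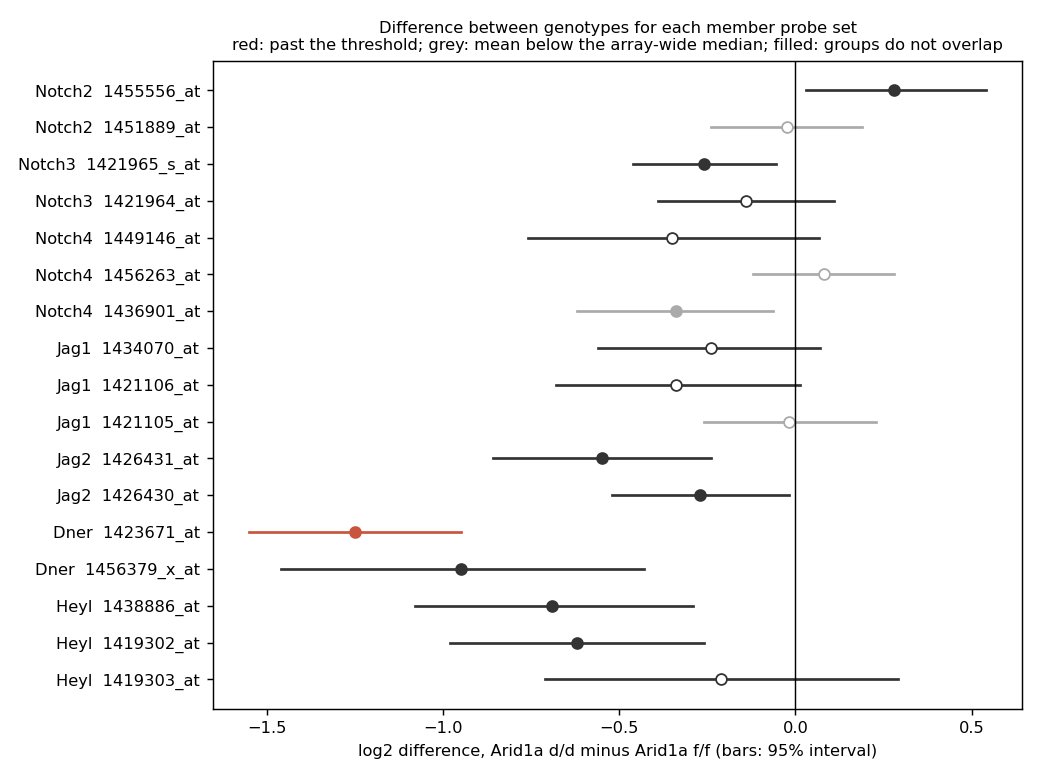
Log2 difference between genotypes (horizontal axis, d/d minus f/f) with its 95% interval for each of the 17 probe sets, where filled points mark groups that do not overlap, grey marks a mean below 2.69 and red marks the 1 probe set past the threshold. Dner 1423671_at lies furthest from 0, at -1.25, and Notch2 1455556_at has the only filled point above 0, at 0.28.

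The promoter of Dner, the gene with the call, and that of Notch2, the gene whose brightest probe set stood higher in d/d, are shown as the 250 bases before the annotated start (RefSeq, build GRCm38.p6, 5′ to 3′ on the strand of the gene). The Dner window is chr1:84696222-84696471 on the minus strand and the Notch2 window chr3:98013288-98013537 on the plus strand, and both end where the gene model begins. Capitals mark every match, on either strand, to the RBPJ core TGGGAA, to its longer form GTGGGAA, which contains the core, to the HES and HEY motifs CACGTG and CACGCG, and to the N-box CACNAG.
Dner: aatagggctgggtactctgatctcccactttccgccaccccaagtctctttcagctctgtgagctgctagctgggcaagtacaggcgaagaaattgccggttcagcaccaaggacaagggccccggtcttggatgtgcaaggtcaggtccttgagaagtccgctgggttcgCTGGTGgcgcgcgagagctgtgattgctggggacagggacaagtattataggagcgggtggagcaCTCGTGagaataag
Notch2: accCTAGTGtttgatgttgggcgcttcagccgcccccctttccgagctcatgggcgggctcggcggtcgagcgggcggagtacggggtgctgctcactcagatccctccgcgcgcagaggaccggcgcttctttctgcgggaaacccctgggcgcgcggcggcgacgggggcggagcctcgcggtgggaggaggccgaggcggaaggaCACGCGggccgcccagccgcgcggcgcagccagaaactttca
Both Dner matches are N-boxes read on the opposite strand, starting 79 and 14 bases before the gene. Notch2 has 1 N-box match at 247 bases and 1 CACGCG match at 42 bases before the gene. Neither window holds a match to the RBPJ core or to CACGTG. Among 32817 promoter windows of the same length in that table, the core was present in 21.6%, its longer form in 5.42%, CACGTG in 6.02%, CACGCG in 7.61% and the N-box in 36.7%. A match describes the letters only.

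Dner encodes a transmembrane protein with EGF-like repeats that was described in neurons and as a binding partner of Notch. It had the largest difference of the 7 measured genes. Probe set 1423671_at measured 3.65, 3.88 and 4.09 on f/f arrays 1 to 3, and 2.51, 2.58 and 2.76 on d/d arrays 1 to 3. The groups did not overlap, and d/d 1, which resembled the f/f arrays over the whole array, was the lowest of the 6. The means were 3.87 ± 0.22 and 2.62 ± 0.13 (SD, n = 3), and the log2 difference was -1.25 ± 0.13 (SE), a 2.38-fold fall (limma adjusted p = 0.00914). Array d/d 1 and array d/d 2 were under 2.69 here, so background limits the fold. The call was lost without f/f 2 (log2 difference -1.25, adjusted p = 0.0699) and without d/d 2 (-1.23, adjusted p = 0.0566).

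The other Dner probe set, 1456379_x_at, carries the suffix that marks probes liable to bind other transcripts. It read 3.42, 2.93 and 3.86 on the f/f arrays and 2.71, 2.41 and 2.25 on the d/d arrays. The groups did not overlap, but f/f 2 at 2.93 stood close to d/d 1 at 2.71, and the f/f spread of 0.46 (SD, n = 3) was over that of 1423671_at. The difference was -0.95 ± 0.22 (SE; 95% interval -1.46 to -0.43; limma adjusted p = 0.153) and did not pass. The order of the arrays within a genotype was not the same for both probe sets: f/f 2 was the lowest f/f array for 1456379_x_at and the middle one for 1423671_at.

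Markers of neurons and glia, the cells in which Dner is best known, did not pass in either direction (limma, 0 of 9 measured, with 2 at an unadjusted p under 0.05; 0.851% of all genes passed by their brightest probe set). Uchl1, a neuronal hydrolase, had a log2 difference of -0.35 and Elavl3, a neuronal RNA-binding protein, of 0.22. The other Elavl3 probe sets stood at -0.16 and -0.043. Gap43, the brightest of the list, had the difference furthest from 0, at 0.81 ± 0.37 (SE; limma adjusted p = 0.534), and overlapped. The summed intensity of these 9 markers, to which Gap43 gives the most, was 73.49 to 95.3 in f/f and 82.56 to 111.9 in d/d. Of the 9, 4 (Elavl3, S100b, Elavl4 and Snap25) had means under 2.69. Of 6 measured markers of the uterine glands, 2 fell, 4 did not pass and 0 rose. Those that fell were Foxa2, a transcription factor of the gland epithelium, at -1.41, and Cxcl15, a chemokine made by the glands, at -3.71 (limma adjusted p of 0.0119 and 0.00505). Cxcl15 read 1.72, 1.75 and 2.13 on the d/d arrays, all under 2.69, so background limits its difference. The others ran from -0.27 for Prss28 to 0.082 for Prss29. The summed intensity of the 6 was 74.76 to 125.2 in f/f and 37.87 to 39.98 in d/d, and Prss28 and Lif had means under 2.69. Cxcl15 gives the most to the f/f sums, so the fall in the sum is mainly that of Cxcl15. The part of gland content in the Dner result was not tested. Fewer cells of a type and less RNA per cell cannot be told apart in whole tissue, here and below.

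Jag1 and Jag2 encode the Jagged ligands, which bind Notch receptors on adjacent cells. Jag2 was lower in every d/d array by both of its probe sets, and neither passed. Jag2 1426431_at measured 5.21, 4.98 and 5.02 on the f/f arrays and 4.73, 4.25 and 4.59 on the d/d arrays. The highest d/d value, in d/d 1, lay 0.25 below the lowest f/f value. The difference was -0.55 ± 0.14 (SE; 95% interval -0.86 to -0.24; limma adjusted p = 0.172). Without d/d 1 it was -0.65 and passed (adjusted p = 0.0497). Jag2 1426430_at gave 4.56, 4.74 and 4.37 on the f/f arrays and 4.34, 4.24 and 4.28 on the d/d arrays, a smaller difference of -0.27 ± 0.11 (SE; adjusted p = 0.46) with f/f 3 and d/d 1 almost level.

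Jag1 overlapped between genotypes by each of its 3 probe sets. Jag1 1434070_at, the brightest, read 7.82, 7.60 and 7.40 on the f/f arrays and 7.55, 7.36 and 7.18 on the d/d arrays. In both genotypes array 1 was the highest and array 3 the lowest, and the difference of -0.24 ± 0.14 (SE; 95% interval -0.56 to 0.07; limma adjusted p = 0.639) was of the size of the spread within a genotype (SD 0.21 and 0.18, n = 3). Jag1 1421106_at was 5.44 in f/f 1, 5.08 in f/f 2 and 4.80 in f/f 3 and between 4.71 and 4.80 in d/d, so f/f 3 was level with d/d. The dimmest, 1421105_at, had means of 2.68 and 2.66, near background in both genotypes. Jagged ligands have been described in epithelium. Of 8 measured markers of simple epithelium, Muc1, a surface mucin, and Cdh1, the epithelial cadherin, rose, by 1.03 and 1.00 (limma adjusted p of 0.0205 and 0.0357), 0 fell and 6 did not pass, against 0.851% of all genes called. Krt18 (0.62), Krt8 (0.61) and Cldn7 (0.62) did not pass, but for each every d/d array lay above every f/f array. Krt7 (0.21), Epcam (0.14) and Cldn3 (-0.18) overlapped between genotypes, and none of the 8 had a mean under 2.69. Groups did not overlap in the higher direction for 5 of the 8, against 6.67% of all probe sets. Of all genes the groups did not overlap for 16.5% in either direction, 9.42% being lower. The summed intensity was 2566 to 3190 in f/f and 3924 to 4147 in d/d, and its part in the Jagged values was not tested.

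**Figure D2:**
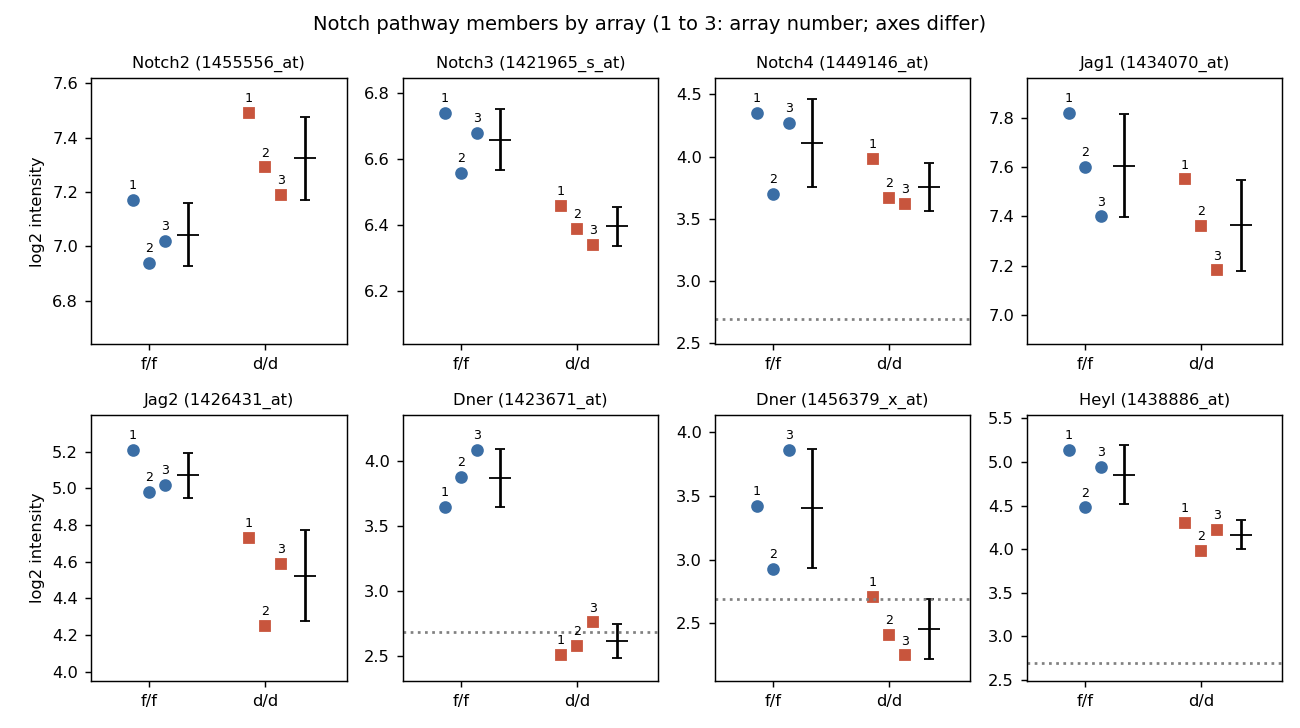
Log2 intensity (vertical axis, scales differ) of the brightest probe set of each measured gene, and of both Dner probe sets, with 1 point per array numbered 1 to 3, the mean and SD in black and a dotted line at 2.69 where it is in range. Dner 1423671_at in d/d lies between 2.51 and 2.76 against 3.65 to 4.09 in f/f, while Jag1 and Notch4 overlap between genotypes.

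The Notch receptors did not pass in either direction. The groups did not overlap for 3 of their 7 probe sets, 1 of each receptor, against 14.1% of all probe sets in either direction. By brightest probe sets, Notch2 was the only measured member with a positive difference. Notch2 1455556_at measured 7.17, 6.94 and 7.02 on the f/f arrays and 7.49, 7.29 and 7.19 on the d/d arrays. Every d/d array lay above every f/f array, with d/d 3 only just above f/f 1, and d/d 1 was the highest. The difference was 0.28 ± 0.11 (SE; 95% interval 0.031 to 0.54; limma adjusted p = 0.439). Its other probe set, 1451889_at, lay below 2.69 on all arrays and had a difference of -0.025.

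Notch3, the receptor known from pericytes and vascular smooth muscle, stood slightly lower in d/d. Notch3 1421965_s_at read 6.74, 6.56 and 6.68 on the f/f arrays and 6.46, 6.39 and 6.34 on the d/d arrays. The genotypes were 0.10 apart at their nearest, and the spread within each was small (SD 0.09 and 0.063, n = 3). The difference was -0.26 ± 0.089 (SE; 95% interval -0.46 to -0.055; limma adjusted p = 0.357), a level of 0.835 of f/f. The dimmer 1421964_at overlapped and had a difference of -0.14 ± 0.11 (SE).

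Notch4, a receptor found mainly in endothelium, had 1 probe set above 2.69 on all arrays and 2 below it. Notch4 1449146_at gave 4.35, 3.70 and 4.27 on the f/f arrays and 3.98, 3.67 and 3.62 on the d/d arrays. The f/f arrays spanned more than the genotypes differed, and f/f 2 was level with d/d 2. The difference was -0.35 ± 0.18 (SE; 95% interval -0.76 to 0.068; limma adjusted p = 0.598). Of its probe sets with values below 2.69 on all arrays, 1436901_at had a difference of -0.34 with groups that did not overlap and 1456263_at one of 0.08, and background limits both.

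Heyl encodes a HEY family repressor that Notch3 signalling is known to turn on in vascular smooth muscle. Among the members it was the only target gene measured. It was lower in d/d by 2 of its 3 probe sets without overlap, and none passed. Heyl 1438886_at measured 5.14, 4.48 and 4.94 on the f/f arrays and 4.30, 3.98 and 4.22 on the d/d arrays. The lowest f/f array, f/f 2, lay 0.18 above the highest d/d array, d/d 1. The difference was -0.69 ± 0.17 (SE; 95% interval -1.08 to -0.29; limma adjusted p = 0.176), a level of 0.622 of f/f.

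Heyl 1419302_at followed the same course, at 3.69, 3.22 and 3.86 on the f/f arrays and 3.05, 2.91 and 2.94 on the d/d arrays, with a difference of -0.62 ± 0.16 (SE; limma adjusted p = 0.179). Its d/d values lay only a little above 2.69, so background may limit the difference. Heyl 1419303_at, with 3.03, 2.34 and 3.08 on the f/f arrays and 2.89, 2.64 and 2.29 on the d/d arrays, overlapped and lay below 2.69 on 3 arrays, f/f 2, d/d 2 and d/d 3. Its difference was -0.21 ± 0.22 (SE). All 3 Heyl probe sets had their lowest f/f value in f/f 2, as did Notch4 1449146_at. Over the 13 probe sets with means above 2.69, f/f 2 was the lowest f/f array for 8, and d/d 1 the highest d/d array for 11.

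Most vessel markers had negative differences, as did the brightest probe sets of Heyl, Notch3 and Notch4, and none of these passed. Of 11 measured endothelial markers 10 had negative differences and 0 passed (9 at an unadjusted p under 0.05; median -0.49), with Esam, an adhesion molecule of endothelium, at -0.71 and Emcn, an endothelial sialomucin, at -0.67. The exception was Sox17, a transcription factor also made in uterine epithelium, at 0.14, and it was the brightest of the list, with means of 10.28 and 10.43. The summed intensity, to which Sox17 gives the most, was 2214 to 2544 in f/f and 1976 to 2417 in d/d, with a mean log2 level of 6.71, 6.58 and 6.63 on the f/f arrays and 6.45, 5.99 and 6.12 on the d/d arrays. All 7 measured markers of pericytes and vascular muscle had negative differences and 0 passed (2 at an unadjusted p under 0.05; median -0.29), with Cspg4, the NG2 proteoglycan, at -0.58 and Ndufa4l2, a mitochondrial protein, at -0.39. Their summed intensity was 1120 to 1574 in f/f and 920.3 to 1434 in d/d, with a mean log2 level of 6.12, 6.0 and 6.06 on the f/f arrays and 5.94, 5.65 and 5.76 on the d/d arrays. None of these vessel markers had a mean under 2.69. Fat markers were lower too, with summed intensities of 591.0 to 924.1 in f/f and 196.0 to 481.8 in d/d over 6 genes. Of these 0 passed, Adipoq stood at -1.59 and Retn at -1.46, and Lep and Pparg had means under 2.69. Of 8 measured stroma markers all had negative differences and 1 fell, Thy1, a surface glycoprotein, by 1.06 (limma adjusted p = 0.0169), with Dcn, the decorin gene, at -0.76. Their summed intensity was 13890 to 14670 in f/f and 11060 to 13040 in d/d. All 6 measured smooth muscle markers had negative differences and 0 passed (1 at an unadjusted p under 0.05), with Des, the desmin gene, at -0.46 and Smtn, the smoothelin gene, at -0.31. Their summed intensity was 3887 to 4383 in f/f and 3134 to 4115 in d/d, and no stroma or smooth muscle marker had a mean under 2.69. Every d/d array lay below every f/f array for 6 of 11 endothelial, 2 of 7 pericyte and 6 of 6 fat markers. The same held for 3 of 8 stroma and 2 of 6 smooth muscle markers. Over all genes by brightest probe set it held for 9.42%, 53.4% had a negative difference and 0.851% passed. An unadjusted p under 0.05 was reached by 5 fat and 4 stroma markers, against 9.85% of all probe sets. The part of vessels, fat, stroma and muscle in the values of Heyl, Notch3 and Notch4 was not tested.

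**Figure D3:**
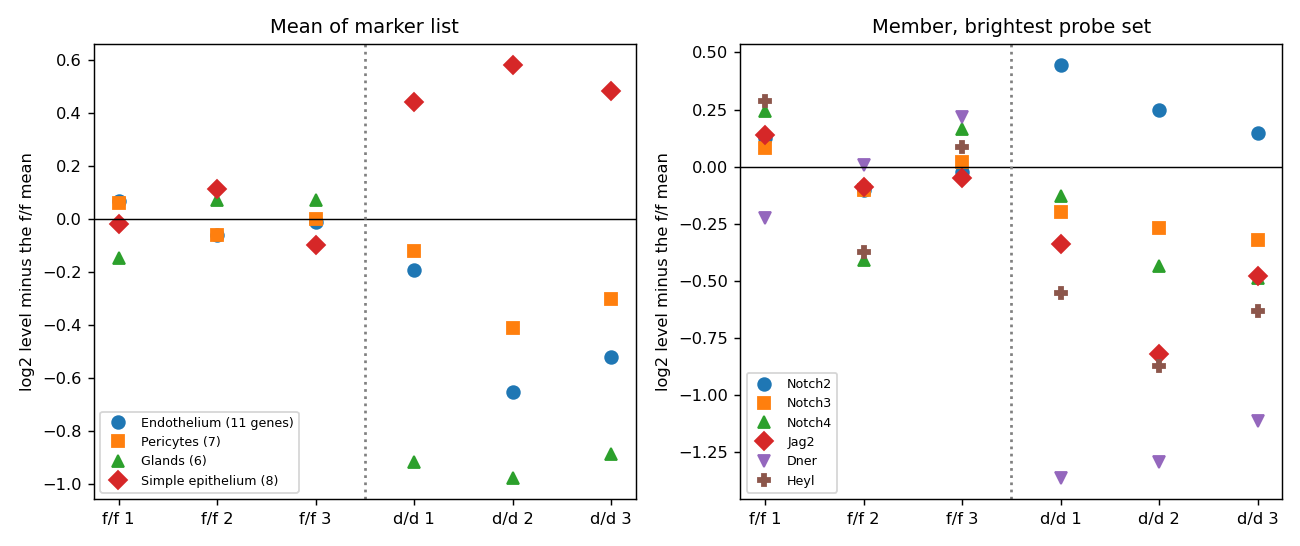
Log2 level of each array minus the f/f mean, for the mean of 4 marker lists (left) and for the brightest probe set of 6 Notch genes (right), with f/f arrays left of the dotted line. Endothelial and pericyte markers lie nearer to f/f in d/d 1 (means of 6.45 and 5.94) than in d/d 2 or d/d 3, while Dner is lowest in d/d 1, at 2.51.

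Beyond these members, 53 further genes of the pathway were listed by role, of which 41 were measured, each by its brightest probe set. None passed in either direction (limma; 7 of 41 at an unadjusted p under 0.05), against 0.851% of 16813 genes. Groups did not overlap for 5 lower and 1 higher of the 41, 9.42% of all genes being lower and 16.5% lower or higher in that sense. The median difference was -0.059, with 26 negative and 15 positive, and the range -0.65 to 0.31.

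Deltex genes, which encode ubiquitin ligases that bind the Notch intracellular part and act on receptor turnover, include the pair with the differences furthest from 0, Dtx4 and Dtx1, while Dtx3 stood at -0.24 and Dtx2 at -0.082. Dtx4 measured 7.65, 7.51 and 7.51 on the f/f arrays and 7.19, 6.71 and 6.83 on the d/d arrays. The groups did not overlap, and d/d 1 was the nearest of its group to f/f. The difference was -0.65 ± 0.13 (SE; 95% interval -0.95 to -0.35; limma adjusted p = 0.0975). It passed without d/d 1 (-0.79, adjusted p = 0.00941) and without both arrays numbered 1 (-0.74, adjusted p = 0.0301), and the dimmer Dtx4 probe set had a difference of -0.33. Dtx1, at -0.57 ± 0.20 (SE; adjusted p = 0.374), overlapped through d/d 1 at 5.50 against f/f 2 at 5.39, and passed without d/d 1 (-0.80, adjusted p = 0.0265). The list of receptor turnover and antagonists had 6 of 7 measured genes negative and 0 past the threshold.

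Among 5 other measured ligands 0 passed. Dll4, the Delta ligand of sprouting endothelium, measured 4.52, 4.35 and 4.15 on the f/f arrays and 3.81, 4.02 and 3.84 on the d/d arrays by its brightest probe set. These groups did not overlap, and the difference was -0.45 ± 0.12 (SE; limma adjusted p = 0.201), but its other probe set stood at 0.15 and overlapped. Dlk1, a Delta-like protein without the domain that binds Notch in the classical ligands, had a difference of -0.37 ± 0.23 (SE) and overlapped.

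Genes for cutting, glycosylating and tagging the receptor or ligand had differences between -0.32 and 0.15. Of 6 measured genes of receptor cleavage 0 passed, with Psen2, a catalytic subunit of gamma-secretase, at -0.20 and Adam10, the protease of the first cut, at -0.081. Of 4 measured genes of receptor glycosylation 0 passed, with Lfng, a Fringe enzyme that alters which ligands a receptor answers, at -0.32 and Rfng, another Fringe enzyme, at -0.14. Lfng lay near background, with means of 2.99 and 2.67. Of 4 measured genes of ligand ubiquitination, which pulls ligands into the signalling cell, 0 passed, with Neurl1a at -0.31 and Mib2 at -0.22.

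The nuclear complex was the one role in which most differences were positive, 6 of 7 measured, with 0 past the threshold and all between -0.16 and 0.15. Snw1, a coregulator also known from splicing, had a difference of 0.12 ± 0.086 (SE) without overlap. The other Snw1 probe sets, at 0.24 and -0.017, overlapped. Maml2, a Mastermind coactivator, had a difference of 0.15 at levels below 2.69 on all arrays. Of 8 further targets and HES family genes 0 passed. Myc, a growth regulator that Notch turns on in some cells, had a difference of -0.32 ± 0.13 (SE; limma adjusted p = 0.475), with f/f 1 at 6.84 inside the d/d range of 6.76 to 6.87. Hes6 stood at -0.18 and overlapped, and its other probe set stood at -0.22 without overlap. Hes2, Hes3 and Hes7 had means under 2.69.

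**Figure D4:**
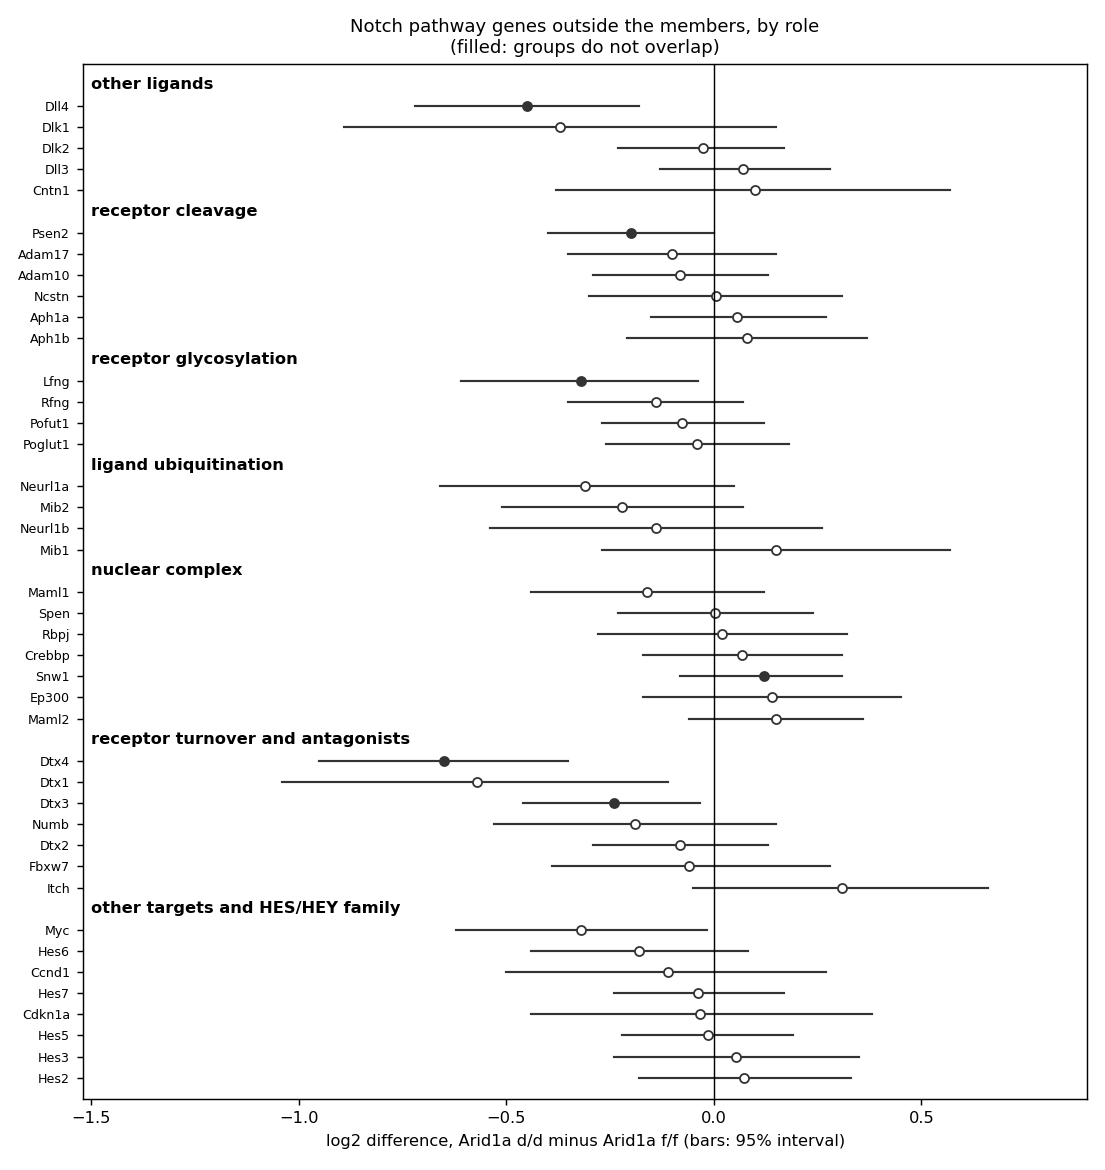
Log2 difference between genotypes (d/d minus f/f) with its 95% interval for the 41 measured pathway genes outside the members, ordered by role, where filled points mark groups that do not overlap. Dtx4, at -0.65, lies furthest from 0, and the nuclear complex lies between -0.16 and 0.15.

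The genes whose levels followed Dner, Jag2 and Heyl most closely over the 6 arrays were sought among 10562 genes with means above 2.69, by Pearson correlation. With 6 arrays and a shared difference between genotypes many genes reach high values, so these are descriptions. For Dner they were Cxcl15 (0.997), Arap1 (0.997), C9orf72 (0.995), Met (0.995) and Arid1a itself (0.992). Cxcl15, Arap1 and Arid1a were lower in d/d past the threshold, and C9orf72 and Met had differences of -0.36 and -0.32 that did not pass. With the genotype means removed the correlations with Dner were 0.945, 0.946, 0.948, 0.946 and 0.844. The genes were picked for high correlation over the same 6 arrays, so these values are not an independent check. By the same measure the genes named next for Jag2 and Heyl all correlated with their member above 0.844.

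For Jag2 the closest genes were Slc2a13 (0.999), Ntn1 (0.996), Ubxn10 (0.995), Smurf2 (0.994) and Iqsec1 (0.993). None of them passed, and their differences ran from -0.84 for Slc2a13, a transporter of myo-inositol, to -0.13 for Smurf2, a ubiquitin ligase. For Heyl they were Lef1 (0.984), Igf2 (0.983), Fmn2 (0.982), Plxnd1 (0.981) and Edem1 (0.977), none past the threshold. Lef1, a transcription factor of Wnt signalling, differed by -0.56, Plxnd1, a semaphorin receptor of vessels, by -0.39 and Igf2, a growth factor, by -0.32.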

How the data were processed

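Each array has 1 deposited intensity per probe set, not log-transformed, made with RMA per the submitters' processing notes (no version or settings given). RMA corrects background, gives arrays a shared distribution and summarises probes, so differences near background are compressed. Log2 was taken with no added constant. The platform annotation gave 1 symbol to 31562 of 41420 probe sets, several to 830 and none to 9028. The comparison used limma 3.58.1 (R 4.3.3; lmFit, eBayes, 2-sided, no covariate, all 6 arrays, 4 residual and 4.19 prior degrees of freedom), adjusted over all probe sets with a threshold of 0.05. Pathway and marker genes stand for their brightest probe set with 1 symbol.

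Members and lists were chosen with earlier results of these data known. All member probe sets are named. Of each pathway list, and of each marker list set beside a member, the genes past the threshold and those with the 2 smallest p are named. So are the 5 genes most like each of the 3 members of smallest p (clone and predicted symbols passed over). Dtx2, Dtx3, Sox17, Krt7, Krt8, Krt18, Epcam, Cldn3, Cldn7, Gap43 and Prss29 are named after their values were seen. Hes2, Hes3, Hes7, S100b, Elavl4, Snap25, Prss28, Lif, Lep and Pparg are named for lying near background, and Esr1, Pgr, Hoxa10 and Hand2 as uterine markers.

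The fit was tested on simulated data drawn with limma's estimate of each probe set's spread, which is pulled toward a value shared by all. Probe sets of wide spread are therefore quieter there than in the data, and recovery may be overstated for them. Of 50 probe sets changed 1.5-fold among 41420, 26 were recovered. At each of 2-fold, 4-fold and 8-fold 50 of 50 were recovered, and 18 of the 194 calls were false. The number of arrays limits the precision. Alternatives were limma with a trend and robust variance, the replicate block, array weights, repeated quantile normalization, median centring, 1 added before log2, leaving out the dimmest 40% or _x_at probe sets, 1 probe set or the mean per gene, a threshold of 0.10, and leaving out arrays.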

Additional observations from a re-analysis of the deposited data

How the results depend on the processing

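Of 282 recomputed values of the 17 member probe sets, 273 kept their direction and their side of the threshold, 2 lost a call (Dner without f/f 2 and without d/d 2), 2 gained one and 5 changed sign. The sign changes were of values near 0 with no call: Notch2 1451889_at, at 0.014 without f/f 2 and 0.0095 without d/d 2 (-0.088 without f/f 1), and Jag1 1421105_at, at 0.064, 0.013 and 0.016 without f/f 2, d/d 2 and d/d 3 (-0.084 without f/f 3 and -0.093 without both arrays numbered 1). Smurf2, named for its likeness to Jag2, reversed to 0.035 when its probe sets were averaged. Pairing by replicate number was not adopted, since the labels state no pairing. The correlation of deviations within a number was 0.461, 0.0228 and 0.178. Correlations between different numbers are not given here, so these values cannot decide whether the arrays are paired. With the replicate block 2 member probe sets passed, Dner and Heyl 1438886_at (adjusted p = 0.0297), 1 pathway gene, Dtx4 (adjusted p = 0.0356), and 574 of all probe sets, against 1, 0 and 217 without it. Array weights gave 329 probe sets. Without both arrays numbered 1 there were 657 probe sets and 1 pathway gene, and Arid1a was at -0.59 (adjusted p = 0.0595). A threshold of 0.10 gave 462 probe sets and 1 pathway gene, as a looser threshold must. Otherwise the cause was not tested. Over the fits without 1 array, members past the threshold ranged from 0 to 2, pathway genes from 0 to 2, all probe sets from 37 (without f/f 2) to 971 (without d/d 1), and Arid1a from -0.62 to -0.53. Low signal limits Dner in d/d, 2 Notch4 probe sets, and 1 each of Notch2, Jag1 and Heyl. Heyl 1419302_at in d/d, at 2.91 to 3.05, and Notch3 1421964_at, with means of 3.02 and 2.88, lay only a little above 2.69.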
